A study of Arabidopsis thaliana with 42 samples.

Results

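Var2-1, one of 7 natural ecotypes of Arabidopsis thaliana profiled in the series, was set against the other 6 across the root transcriptome. Its 6 arrays were taken by their ecotype label out of 42, and the 36 arrays of Col0, Kas2, NFA8, SQ8, TAMM27 and Ts5 were the comparison, with the same weight for each ecotype and treatment as a factor. The study asked how ecotypes with different root systems respond to nitrogen. Seedlings of every ecotype were 12 days old and had been raised hydroponically with 0.5 mM ammonium succinate as the only nitrogen source and 3 mM sucrose. For the last 2 h they received KNO3 to 5 mM or, as the control, KCl to 5 mM, and there were 3 arrays labelled as biological replicates for each of the 14 combinations, so Var2-1 has 3 KCl and 3 KNO3 arrays. Each sample held the whole roots of many pooled seedlings, so a lower signal can come from fewer cells of a type or from less RNA per cell, and these cannot be told apart. The values are signals of ATH1 arrays, whose 22746 gene probe sets were designed on Col0. A Var2-1 sequence that differs from a probe lowers the signal, so genes higher in Var2-1 are less open to probe mismatch than genes lower in it. P-values measure the spread between the replicate arrays.

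Natural ecotypes of one species carry different alleles of most genes, and root gene expression differs between them through variation near single genes and in gene families that vary in copy number, such as immune receptors. Roots take up nitrate through NRT1.1 and NRT2.1 and reduce it with nitrate and nitrite reductases. They also turn tryptophan into indolic defence compounds, which include indole glucosinolates and camalexin, and respond to heat and to low oxygen with dedicated sets of genes.

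The pair of Var2-1 arrays with replicate number 1 stood apart from the other 4. Over log2 signals of the 6590 tested probe sets, r squared among Var2-1 replicates 2 and 3 of both treatments was 0.899 to 0.945, while KCl replicate 1 had 0.351 to 0.543 with the other Var2-1 arrays and KNO3 replicate 1 had 0.27 to 0.351. Both were closest to an array of another ecotype, KCl replicate 1 to Kas2 KCl replicate 1 (r squared 0.657) and KNO3 replicate 1 to TAMM27 KCl replicate 2 (0.488). Replicate pairs of the other 12 groups spanned 0.368 to 0.899 with a median of 0.643. Among replicates 2 and 3, r squared was 0.945 and 0.932 for arrays of the same number in different treatments and 0.918 and 0.94 for arrays of the same treatment. The control probe sets for the 3′ and the 5′ end of the same transcripts, which report RNA integrity, had a log2 ratio of 3.83 and 3.91 on the replicate 1 arrays, above the 0.301 to 3.76 of all other ecotypes, and 1.33 to 1.53 on replicates 2 and 3.

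The replicate 1 array in KNO3 also had high signals of photosynthesis genes, and whether the sample held shoot tissue was not tested. The summed signal of 9 nuclear photosynthesis probe sets was 68930 there, 1925 on KCl replicate 1, 2712 to 4910 on replicates 2 and 3 and 872 to 17630 on the 36 others. RCA, which encodes Rubisco activase, read 12580 on that array against at most 4331 on any other ecotype's. Markers of root cell types and of cell division were at the low end there, within the range of the other ecotypes. The root hair expansins EXP7 and EXP18 together had 57.1 (294 to 398 on replicates 2 and 3, 36.7 to 809 elsewhere). The peroxidase PER72 of the endodermis had 203.9 (659 to 823, and 79.4 to 3182) and the spindle checkpoint gene MAD2 30.3 (84.3 to 124.8, and 27.1 to 351). None of the vascular markers looked for had a probe set named. Results are therefore given with all 6 Var2-1 arrays and without both replicate 1 arrays. The array medians of Var2-1 were 99.1 to 115.2, and 49.8 to 53.8% of its probe sets reached a signal of 100, within the 49.5 to 62.5% of the other ecotypes.

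**Figure D1:**
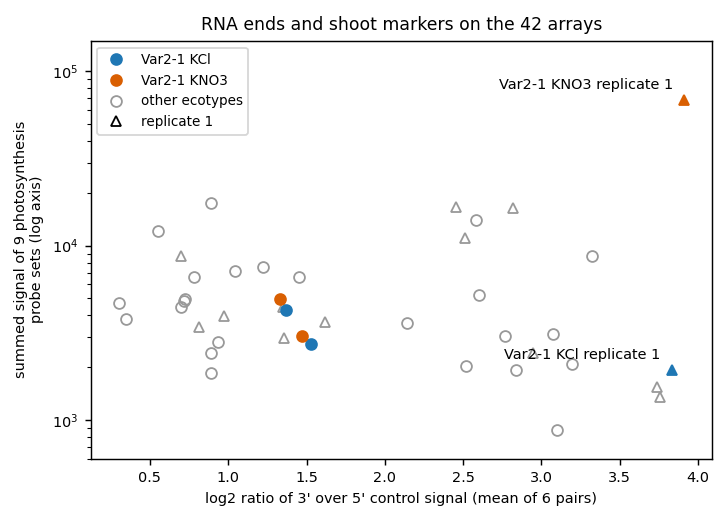
Each point is 1 of the 42 arrays. The horizontal axis is the mean log2 ratio of 3′ over 5′ signal of 6 control pairs and the vertical axis, on a log scale, the summed signal of 9 photosynthesis probe sets. Filled symbols are Var2-1 (blue KCl, orange KNO3), open grey symbols the other ecotypes and triangles replicate 1. The Var2-1 replicate 1 arrays lie at the far right, and the KNO3 array at 68930 lies above every other array.

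The test covered the 6590 probe sets of single nuclear genes whose signal averaged 100 or more over all arrays. Of these, 285 were higher in Var2-1 (4.32%) and 416 lower (6.31%) than the mean of the other 6 ecotypes, at a Benjamini-Hochberg adjusted p of 0.1 in a limma fit of log2(signal + 1). At an unadjusted p of 0.05 there were 1290. The calls were mostly modest in size. The median size on the log2 scale was 0.84 for genes called higher (1.79-fold) and 0.94 for genes called lower (1.91-fold), beside a median difference of 0.02 over all tested probe sets. Of the genes called higher 101 differed at least 2-fold, 17 at least 4-fold and 6 at least 8-fold, and of the genes called lower 183, 32 and 7. In 110 of the genes called lower the Var2-1 mean was itself below a signal of 100. In 13 of the genes called higher the mean of the other ecotypes was below 100, so that these passed the signal filter only through Var2-1, AT4G18975, AT1G23960 and FOX4 among them. Without both replicate 1 arrays the counts were 503 higher (7.63%) and 425 lower (6.45%). The sets overlapped in 473 probe sets, with 228 called only with all 6 arrays and 455 only without replicate 1. The split between directions moved with the scaling. With each array centred on its median, which moved the median difference of all tested probe sets to 0.11, 381 were higher and 265 lower, so 59.0% of the calls were higher against 40.7%.

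**Figure D2:**
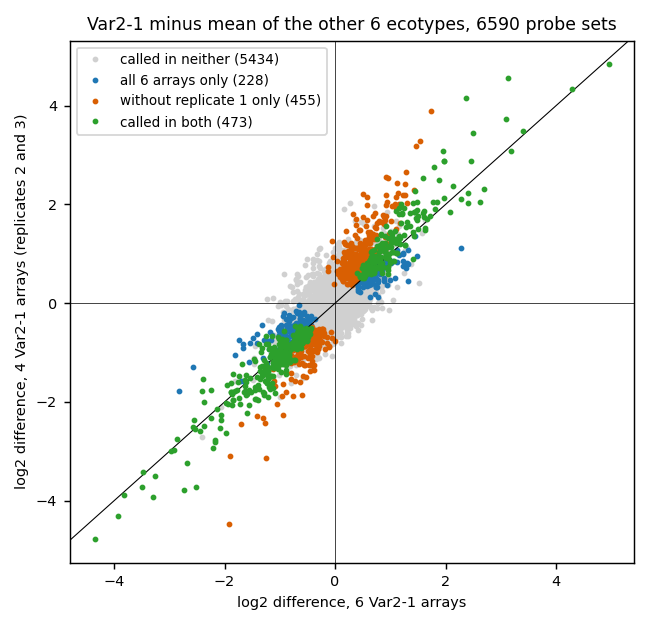
Each point is 1 of 6590 tested probe sets. The axes give the log2 difference of Var2-1 from the mean of the other 6 ecotypes with 6 Var2-1 arrays (horizontal) and with the 4 arrays of replicates 2 and 3 (vertical), and the line marks equal values. The 455 orange points called only without replicate 1 mostly lie farther from 0 on the vertical than on the horizontal axis, and the 473 green points lie near the line in both directions.

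Var2-1 stood alone at few genes. A gene was counted as different from each of the other 6 ecotypes where all 6 pairwise contrasts passed in the same direction, which held for 7 higher (0.106%) and 37 lower (0.561%), and for 34 higher (0.516%) and 46 lower (0.698%) without replicate 1. Of the 285 genes called higher, 13 passed against 1 other ecotype, 88 against 2, 97 against 3, 48 against 4 and 32 against 5. Of the 416 called lower, 22, 89, 108, 102 and 58 did so. With no model at all, all 6 Var2-1 signals lay above the highest of the 36 others at 4 probe sets (0.0607%) and below the lowest at 6 (0.091%), and for replicates 2 and 3 alone at 44 (0.668%) and 30 (0.455%). At those 74 probe sets the replicate 1 arrays often did not follow. Of the 44, KCl replicate 1 lay beyond all other ecotypes at 9 and above their median at 17, and KNO3 replicate 1 at 8 and 26. Of the 30, KCl replicate 1 lay below all at 13 and below the median at 25, and KNO3 replicate 1 at 10 and 22. Counted the same way, genes different from each ranged from 5 higher and 14 lower in NFA8 to 52 and 64 in Col0. Probe sets outside all other arrays numbered 23 above and 10 below in Col0. In Kas2, NFA8, SQ8, TAMM27 and Ts5 they were at most 1 above and 4 below, fewer than in Var2-1.

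AT1G50290, a protein-coding gene of chromosome 1, was the tested gene that rose most in Var2-1 while passing against every other ecotype. Replicates 1, 2 and 3 had signals of 781, 1229 and 1518 in KCl and of 1673, 932 and 1526 in KNO3, and those of the 36 other arrays ran from 2.0 through a median of 72 to 572. No array of another ecotype reached the lowest Var2-1 array, replicate 1 included. Kas2 came closest with a mean of 335 and NFA8 next with 230, and Ts5 was lowest with 29.6. The log2 difference was 4.29 ± 0.41 (SE, adjusted p = 4.76e-09).

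AT4G18975 on chromosome 4, which entered the test only through its Var2-1 signals, was the next. It read 782, 322 and 334 in KCl and 1131, 276 and 234 in KNO3, against 7.3, 73.7 and 165 as the lowest, median and highest of the others. The groups did not overlap, and here both replicate 1 arrays were the highest of the 6. The difference was 2.62 ± 0.39 (adjusted p = 2.24e-05) and 2.05 without them (adjusted p = 0.00259).

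AT1G80290 on chromosome 1 was higher by a small but even step. Its 6 Var2-1 signals lay between 268 and 354, and the others had a lowest of 51.5, a median of 163 and a highest of 242. The difference was 1.04 ± 0.20 (adjusted p = 0.000879), and the means of the other 6 ecotypes spanned only 147 to 182. AT1G23960 also lay above all others (565 to 842 against 1.8, 9.2 and 472) and had the largest difference of any tested gene, 4.95 ± 0.66 (adjusted p = 3.20e-06). It passed against 5 ecotypes and not against Col0, whose mean was 378 against 3.12 to 87.9 in the remaining 5. No element of its probe set had been discarded in either Var2-1 list, and the lists of the other ecotypes were not examined for it. Without replicate 1 the difference was 4.84 (adjusted p = 0.000226).

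The other 4 genes higher than in each ecotype overlapped the range of the 36 arrays through a replicate 1 array or through 1 other high array. AT2G37130 had 719 to 2558 in Var2-1 and at most 1154 elsewhere, with KCl replicate 1 the only Var2-1 array inside that range (difference 1.84 ± 0.31, adjusted p = 0.000156). AT1G80180 had 382 on KCl replicate 1 and 1134 to 2311 on the other 5 arrays against a highest of 1174 (1.61 ± 0.30, adjusted p = 0.000483). AT4G05150 had 1474 on KCl replicate 1 and 2662 to 3229 on the rest against a highest of 2357 (1.36 ± 0.27, adjusted p = 0.00102). AT1G03210 had 923 on KNO3 replicate 1 and 1482 to 1594 on the rest against a highest of 1254 (2.14-fold on the scale of the fit, adjusted p = 4.07e-06). All 4 still passed against each ecotype without replicate 1, at differences of 2.05, 1.88, 1.56 and 1.21.

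Of the genes lower in Var2-1, 6 lay below all 36 other arrays. AT1G73490 on chromosome 1 was the most extreme of them. It read 162, 121 and 68.9 in KCl and 165, 105 and 101 in KNO3, against a lowest of 491, a median of 1043 and a highest of 3236 elsewhere. TAMM27 and Kas2 had the highest means, 2390 and 1770, and Col0 the lowest of the other 6 at 758. The difference was -3.26 ± 0.19 (adjusted p = 1.99e-14), and -3.51 without replicate 1.

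AT3G47210 on chromosome 3 read 47.0, 82.9 and 70.1 in KCl and 69.1, 87.1 and 110.8 in KNO3, against 178.7, 455 and 1354. The gap to the lowest other array was narrower, and the difference was -2.56 ± 0.20 (adjusted p = 2.67e-11). FLDH encodes a farnesol dehydrogenase, which oxidises an isoprenoid alcohol. Its Var2-1 signals were 273, 236 and 178.5 in KCl and 141, 329.7 and 233 in KNO3, all below the 437 of the lowest other array (median 779, highest 1778), and the difference was -1.88 ± 0.18 (adjusted p = 4.49e-09). cwINV6 encodes a fructan exohydrolase of the cell wall invertase family. It had 662, 752 and 592 in KCl and 932, 544 and 455 in KNO3 against 1151, 1911 and 3646, a difference of -1.65 ± 0.16 (adjusted p = 4.72e-09) that was nearly the same in KCl (-1.61) and KNO3 (-1.68).

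AT5G54860 and AT5G45350 on chromosome 5 completed the set with smaller steps. AT5G54860 had 165.6 to 233.4 against a lowest of 255.8 and a median of 427 (-1.24 ± 0.17, adjusted p = 4.08e-06). AT5G45350 had 476 to 906 against a lowest of 919 and a median of 1567 (-1.02 ± 0.16, adjusted p = 8.32e-05). All 9 of these genes that also passed against each ecotype, 3 higher and 6 lower, kept their call without replicate 1, with differences of 4.35, 2.05 and 1.04 for the genes higher and -3.51, -2.37, -1.79, -1.80, -1.21 and -0.83 for the genes lower, in the order given above. AT5G45350 then no longer passed against each ecotype.

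**Figure D3:**
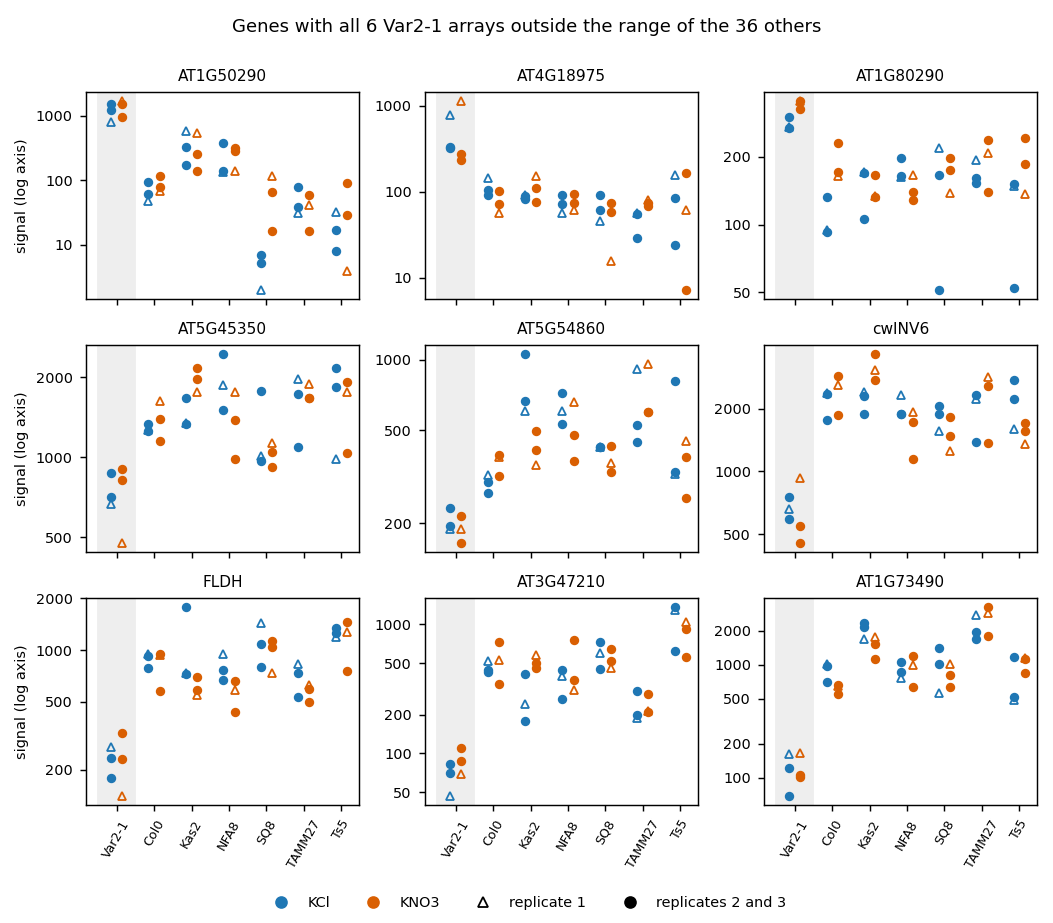
Signals (log axes) of the 9 genes that passed against each other ecotype and whose 6 Var2-1 arrays (grey band) all lie outside the range of the 36 others. Blue is KCl and orange KNO3, and open triangles are replicate 1. The first 3 panels show genes above all others in Var2-1, AT1G50290 at 781 to 1673 among them, and the remaining 6 genes below all others, AT1G73490 at 68.9 to 165 among them.

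The other 31 genes lower than in each ecotype had at least 1 Var2-1 array within the range of the others. GH3.3, which encodes an enzyme that conjugates the hormone auxin to amino acids, had the largest step. It read 1094, 134 and 55.7 in KCl and 10.3, 140 and 75.4 in KNO3 against 36.9, 1342 and 8949. KCl replicate 1 lay near the median of the other ecotypes and the remaining 5 arrays between 10.3 and 140, and the difference was -3.82 ± 0.70 (adjusted p = 0.000459) and -3.89 without replicate 1 (adjusted p = 0.00117). UGT73B4, a glycosyltransferase of stress responses, had 239 on KCl replicate 1 and 13.4 to 89.7 on the rest, against 108.4, 371 and 2641 (-2.68 ± 0.31, adjusted p = 3.47e-07, and -3.24 without replicate 1), and its neighbour on chromosome 2, UGT73B5, was called lower as well (-1.21 ± 0.39, adjusted p = 0.0513). F6'H1, which catalyses a step in the synthesis of the iron-mobilising coumarin scopoletin, had 611 and 857 on the replicate 1 arrays and 1965 to 2765 on the rest against a lowest of 1573 and a median of 4570 (-1.38 ± 0.29, adjusted p = 0.00173). Without replicate 1 it still was called, but at -0.82 (adjusted p = 0.0855) and no longer against each ecotype. ARPN, a plantacyanin-type copper protein, the tetraspanin gene TET8 and SNF7.2, a subunit of the membrane-sorting complex ESCRT-III, had differences of -1.97, -1.13 and -1.13. Those of AT5G23460 and AT3G28510, without a symbol, were -3.29 and -2.44.

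Genes of tryptophan-derived defence compounds were among those that rose most in Var2-1. A list of 24 such genes, put together after their values were seen and so no independent evidence, had 9 probe sets named, of which 6 were called higher and 1 lower, with a median difference of 2.23 beside 0.02 over all tested. Of the 9, 5 lie outside the tested set because the platform annotation has no entry for them. They were named from the study's probe-to-gene columns and their p-values adjusted over all 22746 probe sets. Of these 22746, 2.71% were called higher and 3.93% lower (4.08 and 4.85% without replicate 1). The 5 also average 100 or more, and of the 983 such probe sets named only by the study 6.21% were higher and 11.1% lower. Without replicate 1 these shares were 8.44 and 10.9%. CYP79B3 makes indole-3-acetaldoxime, the shared precursor. It read 928, 1713 and 1665 in KCl and 411, 1708 and 1917 in KNO3 against 60.9, 292 and 536 on the other 36 arrays. Only the KNO3 replicate 1 array fell into the range of the other ecotypes, the gene passed against each of them, and the difference was 2.36 ± 0.34 (adjusted p = 1.30e-05) and 2.86 without replicate 1.

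CYP71A13 and CYP71A12 turn the aldoxime into indole-3-acetonitrile on the way to camalexin. CYP71A13 had 65.9 and 35.1 on the replicate 1 arrays and 864, 914, 1112 and 933 on the others, against 1.8, 36.5 and 1996. Kas2 had the next highest mean, 549.5, against 16.1 to 106 in the remaining 5, and the difference was 3.33 ± 0.82 (adjusted p = 0.0106). CYP71A12 had 39.8 and 149 on the replicate 1 arrays and 2112 to 3660 on the others against 2.4, 288 and 3485 (2.23 ± 0.71, adjusted p = 0.067). CYP71A12 passed against only 2 ecotypes, and on the log2 scale Kas2 was level with Var2-1 (difference -0.04). FOX4, which encodes a FAD-linked oxidoreductase, had 7.0 and 185 on the replicate 1 arrays and 618 to 998 on the rest, above the highest of 330 elsewhere (3.13 ± 0.75, adjusted p = 0.00577). It too entered the test only through Var2-1. FOX1, a paralog that acts in the synthesis of indole carbonyl nitriles, had 3.2 and 99.8 on the replicate 1 arrays and 1603 to 2075 on the rest. The arrays of the other ecotypes had 1.7, 151 and 1678. The FOX1 difference of 1.73 ± 0.86 was not called (adjusted p = 0.259), and it passed against Col0 only. CYP71B6, which converts indole-3-acetonitrile further, had 1766 and 2899 on the replicate 1 arrays and 3736 to 4063 on the rest. The arrays of the other ecotypes had 857.9, 1920 and 6458. The CYP71B6 difference was 0.86 ± 0.20 (adjusted p = 0.00539). It passed against 4 ecotypes but not against Kas2, whose mean was 2872, or Ts5.

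IGMT1 and IGMT2, which methylate indole glucosinolates, went opposite ways. IGMT1 had 4.8 and 60.3 on the replicate 1 arrays and 526 to 1140 on the rest against 1.1, 38.2 and 1159 (2.32 ± 0.70, adjusted p = 0.0479). It passed against 4 ecotypes, while SQ8 and Ts5 were level with Var2-1 (log2 differences -0.15 and -0.20). IGMT2 had 14.0 and 58.2 and then 28.1 to 172 against 6.4, 158.5 and 864 (-1.30 ± 0.43, adjusted p = 0.077). Probes of such close copies, CYP71A12 and CYP71A13 included, may read each other's transcripts. Without replicate 1, 7 of the 9 were called higher and none lower, at differences from 1.12 for CYP71B6 to 4.76 for CYP71A13 (adjusted p = 0.000689), FOX1 rose by 3.90 (adjusted p = 0.000708), and IGMT2 was not called (-0.87, adjusted p = 0.302). CYP79B3, FOX4, FOX1 and CYP71B6 then passed against each other ecotype, and CYP71A13, CYP71A12 and IGMT1 did not. The replicate 1 arrays, which had the high 3′ to 5′ ratios, read lowest of the 6 for each gene named here other than IGMT2, and the part of RNA integrity in this was not tested.

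Among 22 gene lists with 384 genes, 97 probe sets were named, 43 of them tested. The p-values of the other 54, NRT1.1, HSP101 and ADH1 among them, were adjusted over all 22746 probe sets. Of the 43, 2 were called higher and 6 lower, beside 4.32 and 6.31% of all tested, and of the 54 outside the tested set 3 were higher and 8 lower, where probe sets named only by the study and averaging 100 or more gave 6.21 and 11.1%. Without replicate 1 the 97 held 9 higher and 17 lower. The background outside the tested set was then 8.44 and 10.9%. Counts per list are small. No member was called, with all 6 arrays, of 8 probe sets for nitrogen assimilation, 6 for nitrate regulators, 9 for photosynthesis, 3 for flowering time, 3 for the circadian clock and 1 for sulfate uptake. Without replicate 1, 2 of the 9 for photosynthesis were called lower, and their median moved from 0.12 to -0.59. Of the 8 for nitrogen assimilation 1 was then lower. The shares called lower were then 6.45% of all tested and 10.9% outside the tested set.

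Heat shock genes had the lowest median of the lists, -2.51 over 5 probe sets, of which 3 were called lower. That median is the difference of HSFA2, a dim probe set. HSP101 encodes the chaperone that dissolves protein aggregates. It had 9.5 to 29.7 on the 6 Var2-1 arrays, all below a signal of 100, against 13.5, 115 and 3371, a difference of -3.30 ± 0.68 (adjusted p = 0.00184). The other ecotypes themselves ranged widely, with means from 79.8 in SQ8 to 1343 in NFA8. ROF2, a heat-induced peptidyl-prolyl isomerase, had 20.4 to 43.6 against 39.3, 104.7 and 1873 (-2.53 ± 0.55, adjusted p = 0.0024), and HSFA2, the heat shock factor that regulates both, had 2.2 to 11.1 against 1.2, 19.6 and 663 (-2.51 ± 0.81, adjusted p = 0.0715). All Var2-1 signals of ROF2 and HSFA2 were below 100 as well, and for HSFA2 so was the median of the others. HSFA2 lost its call without replicate 1 (-2.30, adjusted p = 0.18), while HSP101 (-3.16, adjusted p = 0.0159) and ROF2 (-2.55, adjusted p = 0.0131) did not. The small heat shock genes HSP22.0 (-1.04, adjusted p = 0.489) and HSP15.7 (-0.43, adjusted p = 0.784) were not called.

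Of 6 probe sets for the low oxygen response, 2 were called lower. ADH1, the alcohol dehydrogenase of fermentation, read 204, 691 and 1696 in KCl and 420, 681 and 1708 in KNO3 against 242, 5361 and 24900. Arrays 2 and 3 of Var2-1 each read alike in KCl and KNO3, and the other ecotypes ranged from a mean of 1889 in Kas2 to 18230 in Col0. The difference was -2.77 ± 0.59 (adjusted p = 0.00303), and -2.14 without replicate 1 (adjusted p = 0.0629). LDH1, lactate dehydrogenase, fell by 0.88 on the log2 scale (adjusted p = 0.0853) and was not called without replicate 1 (-0.49, adjusted p = 0.429). The ethylene response factor gene HRE1, which acts in this response, was called higher only without replicate 1 (1.37, adjusted p = 0.0414, against 0.89, adjusted p = 0.183).

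Of the immune receptors 1 of 4 probe sets was called. CSA1, a TIR-type NLR receptor, had 14.8, 13.4 and 45.5 in KCl and 23.5, 24.6 and 20.9 in KNO3 against 1.5, 335 and 1131 elsewhere. Var2-1 shared its low signal with Ts5, whose mean was 35.8, while NFA8 had 672 and SQ8 474, and the difference was -2.87 ± 0.36 (adjusted p = 1.22e-06) and -2.76 without replicate 1. FMO1, which makes the systemic immune signal N-hydroxypipecolic acid, was lower by 1.41 on the log2 scale (adjusted p = 0.0946) with all arrays but not called without replicate 1 (adjusted p = 0.182). UGT78D2, which glycosylates flavonols and anthocyanidins, had 717 and 430 on the replicate 1 arrays and 239 to 357 on the rest against 246.7, 786 and 1684 (-1.16 ± 0.22, adjusted p = 0.000577). Without replicate 1 it was lower than in each other ecotype (-1.48, adjusted p = 0.000122), and the flavonol regulator MYB12 was called lower too (-1.09, adjusted p = 0.00239).

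**Figure D4:**
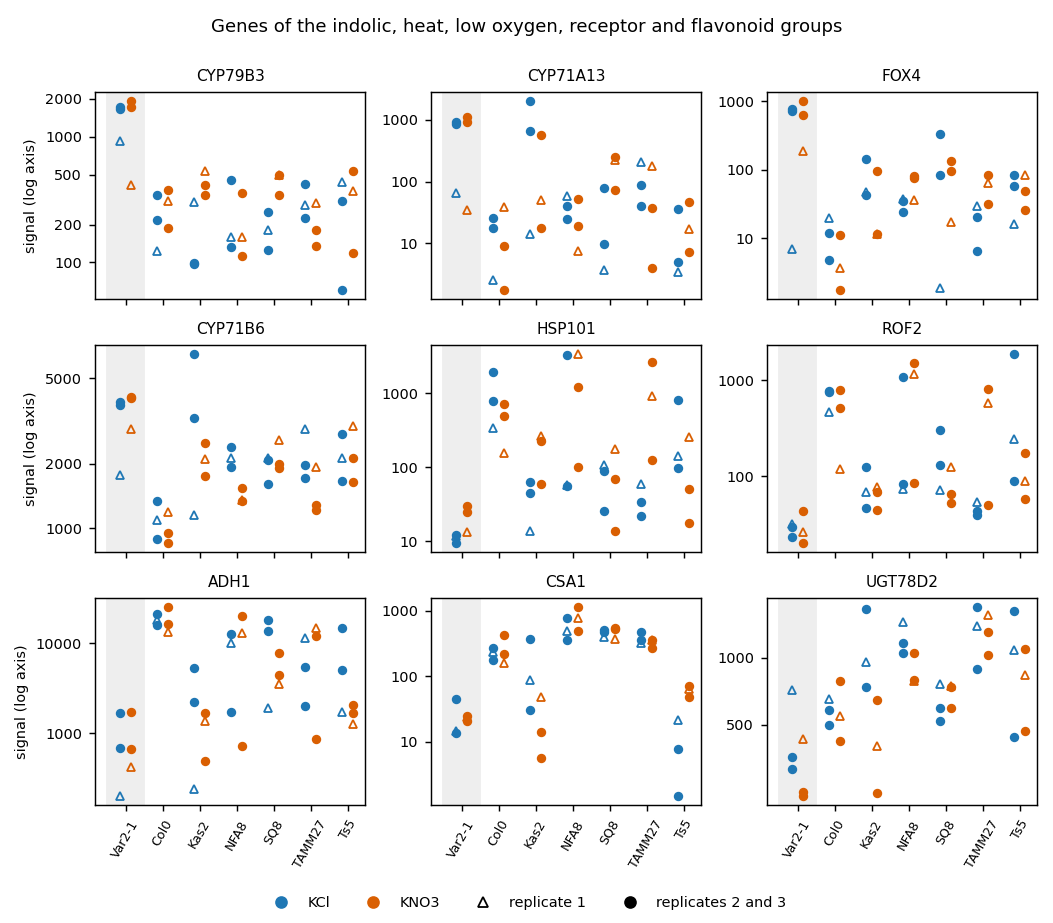
Signals (log axes) of 9 genes of the indolic, heat, low oxygen, immune receptor and flavonoid groups, with Var2-1 in the grey band, KCl in blue, KNO3 in orange and replicate 1 as open triangles. In CYP79B3, CYP71A13, FOX4 and CYP71B6 the filled Var2-1 symbols lie high and the triangles below them, while HSP101, ROF2 and CSA1 are low on all 6 Var2-1 arrays (9.5 to 29.7 for HSP101).

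For nitrate transport 1 of 4 probe sets was called. The dual-affinity transporter and nitrate sensor NRT1.1 had 1294, 946 and 2147 in KCl and 4630, 1501 and 2626 in KNO3 against 1425, 3448 and 9642. The groups overlapped, Col0 had the highest mean (6784), and the difference was -0.77 ± 0.21 (adjusted p = 0.0251) and -0.95 without replicate 1 (adjusted p = 0.0114). NRT2.1, the high-affinity transporter, was not called (1.16 ± 0.71, adjusted p = 0.451), with 362 and 400.5 on replicate 2 and 2357 and 2552 on replicate 3 of KCl and KNO3. Nitrate reductase NIA2 (-0.42, adjusted p = 0.599) and nitrite reductase NIR1 (-0.39, adjusted p = 0.773) were not called either. Without replicate 1 NIA2 was called lower (-1.08, adjusted p = 0.0561). Of the other nutrient lists, the ribonuclease gene RNS1, which phosphate starvation induces, was lower by 1.18 (adjusted p = 0.0341, and 0.193 without replicate 1), and NAS4, which makes the metal chelator nicotianamine, by 0.99 (adjusted p = 0.00158, and 0.000829 without replicate 1). The auxin influx carrier gene AUX1 was lower by 0.76 (adjusted p = 0.0365), by 0.25 in KCl and 1.28 in KNO3, and by 0.69 without replicate 1 (adjusted p = 0.0809).

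Of 5 probe sets for glucosinolate breakdown and ER bodies, the compartments that store myrosinases, JAL34 was called lower with all arrays (-0.65 ± 0.24, adjusted p = 0.0917). That call rested on the replicate 1 arrays, at 1228 and 1986 against 4713 to 7088 on the others, and without them the difference was -0.03 (adjusted p = 0.944). PYK10, the main beta-glucosidase of root ER bodies, behaved likewise. It had 2058 on KCl replicate 1 and 8991 to 13390 on the other 5 against 2259, 6144 and 15020, was not called with all arrays (0.41, adjusted p = 0.38) and was higher without replicate 1 (0.80, adjusted p = 0.0254), as was NAI2, needed to form ER bodies (1.22, adjusted p = 0.000503). Of 8 probe sets at the loci that the study tied to lateral root length, 2 were called higher, AT4G02840 (0.61, adjusted p = 0.0785) and AT4G02920 (0.74, adjusted p = 0.0815), the latter with 1744 on KNO3 replicate 1 and no call without it and its KCl partner (0.33, adjusted p = 0.503). The study mapped these loci by genome-wide association, and then used expression on these arrays to narrow the candidate genes within them. It also examined insertion mutants of candidates and reported root phenotypes for JR1, PhzC and UBQ14. The list used here holds 10 genes, only a part of those in the loci. FLC and JR1 have no probe set named and were not analysed here.

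Outside the tested set, 983 probe sets named only by the study averaged a signal of 100 or more, and 3 were higher and 15 lower than in each other ecotype, of which 4 lay below all 36 other arrays. NAC003, a NAC-type transcription factor gene, had 22.9, 33.0 and 51.4 in KCl and 39.0, 42.2 and 18.0 in KNO3 against 81.1, 506 and 1688 (-3.64 ± 0.28, adjusted p = 2.44e-11). CLPR4, a subunit of the plastid Clp protease, had 226 to 309.6 against 461, 804 and 1417 (-1.60 ± 0.15, adjusted p = 5.04e-09), and EXO70D2, a subunit of the exocyst, and MLP165, a major latex protein homolog, were lower by 1.55 and 1.84. PEN1, a triterpene cyclase of the root, had 2.2 to 46.3 against a median of 150 (-3.50, adjusted p = 7.26e-06). ALMT1, the malate channel of the aluminium response, had 681 on KCl replicate 1 and 52.3 to 99.6 on the rest, where the lowest of the others was 222 (-2.46 ± 0.27, adjusted p = 6.94e-08). Without replicate 1 the differences of NAC003, ALMT1 and PEN1 were -3.58, -2.99 and -3.85. The 3 genes higher than in each other ecotype were CYP79B3, UGE1, a UDP-glucose epimerase of cell wall sugar supply (1.25, adjusted p = 0.000263), and MEMB11, a Golgi SNARE (0.93, adjusted p = 0.000807).

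Further genes passed against each ecotype only once replicate 1 was left out. Among those higher were CCOAMT, a caffeoyl-CoA methyltransferase-type gene, at 1597 to 2108 on the 4 arrays against a highest of 1430 (3.08, adjusted p = 3.46e-08), the osmotin gene OSM34 at 9278 to 11920 against a highest of 6810 (1.82, adjusted p = 0.000273) and the linker histone gene HIS1-3, which drought induces, at 1082 to 1244 against a highest of 979 (2.76, adjusted p = 0.000959). AT2G38870 was among them too, with 3025 to 5954 on the 4 arrays and 51.9 and 187 on replicate 1 (4.16, adjusted p = 9.45e-05). Among those lower were GRX480, a glutaredoxin of salicylate signalling, at 68.3 to 105.8 against a lowest of 127.8 (-2.81, adjusted p = 7.14e-08), UGT76B1, which glycosylates immune-modulating small molecules, at 1046 to 1164 against a lowest of 1830 (-1.62, adjusted p = 7.14e-08), and IAGLU, an auxin glucosyltransferase gene (-1.82, adjusted p = 3.62e-05). GRX480 read 559 and UGT76B1 4002 on KNO3 replicate 1, well inside the range of the other ecotypes.

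The treatments were also compared one at a time. In KCl, 41 genes were higher (0.622%) and 126 lower (1.91%), and in KNO3 103 higher (1.56%) and 187 lower (2.84%). Both treatments called 21 genes higher, 51.2% of the KCl and 20.4% of the KNO3 calls, and 71 lower, 56.4 and 38.0%. The treatments share no array, but they share the estimate of the spread, and Var2-1 arrays of the same replicate number deviated together in KCl and KNO3 (correlations of 0.405, 0.427 and 0.402), so these are not independent sets. Of the KCl calls, 40 of 41 higher and 125 of 126 lower had the same sign in KNO3, and of the KNO3 calls 99 of 103 and 169 of 187. The share of all tested probe sets with the same sign was not counted, so these numbers have no background and are not a replication. Without replicate 1 the counts were 92 (1.4%) and 126 (1.91%) in KCl and 68 (1.03%) and 102 (1.55%) in KNO3.

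No gene was called for a nitrogen response in Var2-1 that differed from the mean response of the other 6 ecotypes (0 of 6590 by limma, 198 at an unadjusted p of 0.05, and 0 and 19 without replicate 1). With arrays weighted by their fit 409 were called. The 3 smallest p-values belonged to GME, an epimerase of ascorbate synthesis, PYRB, the aspartate transcarbamoylase of pyrimidine synthesis, and AT2G43030, each at an adjusted p of 0.999. GME had 608, 656 and 558.5 in KCl and 4452, 1103 and 1118 in KNO3 (interaction 1.47 ± 0.37), PYRB 708, 362 and 284 in KCl and 114, 196 and 178 in KNO3 (-1.59 ± 0.42), and AT2G43030 366.5, 478 and 544 in KCl and 2500, 684.5 and 662.5 in KNO3 (1.62 ± 0.43). In all 3 a replicate 1 array was the extreme one.

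Taken one by one, the other ecotypes differed from Var2-1 at unequal numbers of genes. NFA8 had the fewest calls, 206 higher and 345 lower in Var2-1 (551 in all), followed by TAMM27 (408 and 424), Kas2 (430 and 534), Col0 (472 and 528), Ts5 (535 and 473) and SQ8 (549 and 467). All 6 contrasts share the Var2-1 arrays. The order rested on the replicate 1 arrays. Without them NFA8 remained lowest with 536, SQ8 and Col0 had 667 and 726, and Ts5, TAMM27 and Kas2 had 1567, 1685 and 1739. The group medians of the log2 ratio of 3′ over 5′ signal were 2.45 to 3.19 in the last 3 ecotypes and at most 1.53 in all other groups, and the part of RNA integrity in these counts was not tested. Set against the mean of the other 6 in the same way, each ecotype had its own count, from 353 for NFA8 through 701 for Var2-1 to 1719 for Col0, so Var2-1 had the second lowest.

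**Figure D5:**
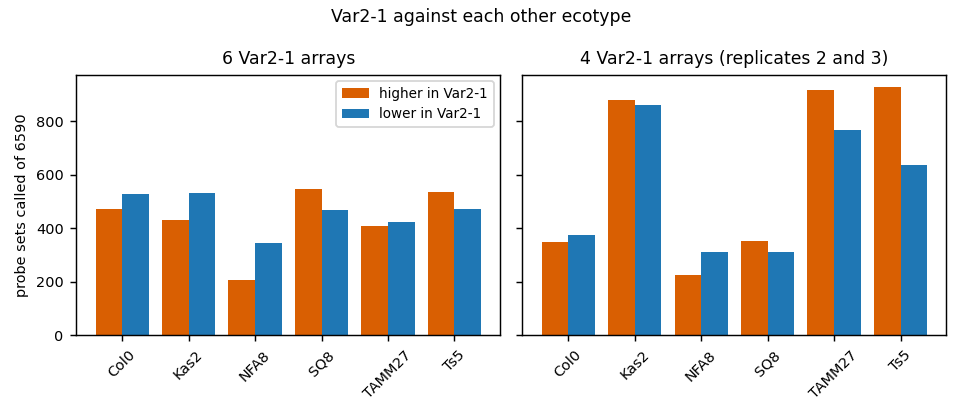
Number of 6590 tested probe sets called higher (orange) or lower (blue) in Var2-1 against each other ecotype, with 6 Var2-1 arrays on the left and the 4 arrays of replicates 2 and 3 on the right. NFA8 has the lowest sum on both sides (551 and 536), and the bars of Kas2, TAMM27 and Ts5 rise to between 1567 and 1739 in all on the right.

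Discarded probe elements bear on how far a difference in signal, in either direction, can be read as a difference in expression. The authors had removed 24278 elements in the Var2-1 KCl list and 23791 in the KNO3 list as unlike Col0. The lists of the other ecotypes ran from 20782 elements in NFA8 KNO3 to 55336 in Ts5 KCl. A mismatch in another ecotype lowers its signal too, so that Var2-1 reads higher. Per gene, only the Var2-1 lists were counted here. Over all tested probe sets the mean was 1.15 elements in KCl and 1.14 in KNO3, and 1032 had none in either list. Genes called higher had 1.40 and 1.65, and genes called lower 1.60 and 1.40, with none removed in 8.07 and 11.3% of them. Both directions thus carried more discarded elements than the tested probe sets at large. The 7 genes higher than in each ecotype had means of 2 and 2.71, and the 37 lower 2.16 and 1.57. At least 3 elements were removed in either list in 57.1% of the 7, 40.5% of the 37 and 21.4% of all tested. In a fit of those 1032 probe sets alone, 19 were called higher (1.84%) and 36 lower (3.49%), smaller shares than the 4.32 and 6.31% of all tested. In the fit of all tested probe sets 23 and 47 of the 1032 were called. AT4G18975 and AT1G50290 had 2 to 5 elements removed per list, AT1G73490 had 2 in each, and MLP165 none in either.

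Neighbouring genes were examined along the chromosomes. Of 1799 pairs of adjacent genes (TAIR10.1 annotation) that were both tested, 25 had both members called, 19 in the same direction and 6 in opposite directions, and no run reached 3 neighbouring genes. Skipping genes that were not tested, there were 56 runs of at least 2 called in the same direction and 5 of at least 3. Of all tested probe sets 4.32% were called higher and 6.31% lower. How many pairs and runs calls at these shares would give by chance was not computed, so the counts show no clustering of neighbours. FOX4 and its neighbour AT1G26420 on chromosome 1 were both higher (3.13 and 1.96), and AT5G52690 and AT5G52680 on chromosome 5 both lower (-2.18 and -1.12). Neighbouring copies of a family may share probe matches.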

How the data were processed

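Root RNA was hybridised to ATH1 arrays, 42 in all, grouped by the ecotype, treatment and replicate of the deposited labels. The deposited values are MAS5 signal intensities on a linear scale, which the authors computed with Affymetrix software (version not given in the sources used here) once they had removed outlying probe elements, judged against Col0. The authors also deposited the lists of discarded elements for 12 groups and a key of probe set names. No further normalization between arrays was applied here.

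The arrays hold 22810 probe sets, 64 of them controls. The platform annotation gives 13513 others 1 gene, 503 several and 8794 none. Among those with 1 gene, 13367 match 1 nuclear gene of the TAIR10.1 annotation, and the 6590 averaging a signal of 100 or more, the detection limit of the methods, were tested. A further 1233 were named only from the study's supplementary probe-to-gene columns (1641 of 1644 shared pairs agreed) and their p-values adjusted over all 22746. The files pair most genes without a symbol with no description, so their roles are not given, and gene families were left out for the same reason. No sequences were used.

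Computed here was a limma model (R 4.3.3, limma 3.58.1) of log2(signal + 1) on 14 group means with a mean-variance trend, two-sided moderated tests and Benjamini-Hochberg adjustment at 0.1. Fold changes are on that scale and understate the change of low signals. The design follows the ecotype by treatment model of the methods, without blocks. The script was tested on simulated data. Precision is limited by the 3 arrays per group.

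Named are the genes called, different from each of the other 6 ecotypes and outside the range of all other arrays, up to 3 called members of each list, FLC, NRT1.1, NRT2.1, NIA2, NIR1, JR1 and PYK10, and the 3 smallest p-values of the interaction. All other genes named were chosen after their values were seen. The members and the lists were chosen with earlier results of these data known, and the list of indolic defence compounds after the values of its genes were seen. Alternatives varied the scaling of arrays, the pseudocount, the filter on low signal, the probe sets fitted, array weights, a replicate block, the threshold and an RNA integrity covariate, and arrays were left out in turn. The alternative of arrays with a log2 ratio under 2 was chosen after seeing the data.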

Additional observations from a re-analysis of the deposited data

Results flagged for a closer look

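In 4 of the 35 genes named by the fixed rule, 1 of the 6 Var2-1 arrays lay far from the other 5 by Dixon's 95% limit on its gap. Chance does this in about 1 in 20 groups of values drawn from a single normal distribution. The 6 values here mix KCl and KNO3 arrays, and AT2G43030 and GME were named for their interaction, so that rate does not hold for them. The array was a replicate 1 array each time: KNO3 replicate 1 for AT2G43030 (2500, the others 366.5 to 684.5), for GME (4452, the others 558.5 to 1118) and for AT4G02840 (495.9, the others 980 to 1226), and KCl replicate 1 for PYK10 (2058, the others 8991 to 13390).

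Among probe sets with a mean signal of at least 50 that no comparison above uses, being dim or without an annotated gene, 6 had every Var2-1 array above the highest of the 36 others. That mean includes the Var2-1 arrays, and AT2G45230, AT5G34920, AT1G59265 and 252168_at reached it only through them. The number above all others is therefore not comparable with the number below. AT2G45230 had 156 to 842 against at most 112.5 (log2 difference 4.731), AT5G34920 213.5 to 1138 against at most 58.3 (4.455) and AT3G44050 132.7 to 412 against at most 131.7 (2.092). AT1G59265, a pseudogene read by a probe set that may match several genes, had 132.1 to 297 against at most 126.6 (2.399). The probe sets 252168_at (191 to 589 against at most 174.9, 4.195) and 254741_s_at (123.5 to 462 against at most 109.4, 2.231) have no gene named here. In the opposite direction, 4 unused probe sets without a gene named had every Var2-1 array below all others, with log2 differences of -1.96 (257810_at), -2.26 (258321_at), -2.11 (259099_at) and -1.21 (267600_at).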

How the results depend on the processing

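Counts of calls moved with the processing, and the cause was not tested unless named. Against the mean of the other 6 ecotypes, 701 calls (285 higher and 416 lower) became 1386 (588 and 798) over all 12612 probe sets averaging a signal of 100 or more, with or without an annotated gene, where more were tested, and 55 (19 and 36) over the 1032 probe sets with no discarded element, where fewer were tested and a smaller share was called. They became 4295 (2281 and 2014) with array weights, 1158 (550 higher) with a covariate for the 3′ to 5′ ratio, 459 (175 higher) at an adjusted p of 0.05, 503 higher without both replicate 1 arrays, 1433 (817 higher) on arrays of low ratio, and 265 lower with median-centred arrays. Genes different from each of the other 6 (7 higher and 37 lower) became 13 and 22 with median-centred arrays, 11 higher with no signal filter, 13 higher with the highest group mean as filter, 94 (22 and 72) over all probe sets, 1 (0 and 1) with no discarded element, 343 (174 and 169) with array weights, 12 higher with the covariate, 27 (22 lower) at 0.05, 80 (34 higher) without replicate 1 and 146 (64 and 82) on arrays of low ratio. The KCl count (167) became 372, 2, 3754, 388, 101 and 488, and the KNO3 count (290) 619, 15, 3385, 507, 183 and 532, over all probe sets, with no discarded element, with array weights, with the covariate, at 0.05 and on arrays of low ratio, and the KNO3 count was 170 without replicate 1. The interaction count was 0 except for 409 with array weights. Probe sets outside all other arrays (10) became 18 over all probe sets, 74 without replicate 1 and 166 on arrays of low ratio, a set of 23 arrays of 6 ecotypes without Kas2.

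Leaving out 1 array at a time gave 448 to 763 calls (166 to 336 higher, 279 to 447 lower), 26 to 68 genes different from each (4 to 23 higher, 22 to 45 lower), 68 to 216 in KCl, 127 to 329 in KNO3 and 0 to 0 for the interaction. The arrays that moved a count over 1.5 times were all Var2-1: KCl replicate 2 (467, 166 higher, and 68 in KCl), KCl replicate 3 (448, 169 higher, 26 different from each, 4 higher and 22 lower, and 70 in KCl), KCl replicate 1 (68 different from each, 23 higher), KNO3 replicate 1 (13 higher than each, and 127 in KNO3) and KNO3 replicate 3 (181 in KNO3).

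Over 273 pairs of arrays with the same replicate number in different groups, deviations from the group means correlated over 0.1 in 104 (-0.43 to 0.692), so not every pair passed and the numbers were not taken to pair the samples of the series. With the replicate block 779 genes were called (328 higher and 451 lower), 49 different from each (8 and 41), 192 in KCl, 335 in KNO3 and 0 for the interaction, and 26 of 42 arrays correlated best with an array of their own number. Within Var2-1 the same numbers did deviate together across treatments (0.405, 0.427 and 0.402). Neither fit models this pairing within an ecotype. The fit without a block treats the KCl and KNO3 arrays as independent. The replicate block gives all ecotypes the same effect of a number, while same-number deviations of Var2-1 and other ecotypes correlated from -0.407 to 0.497. P-values of differences averaged over both treatments may therefore be too small.

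Of the 35 genes named by rule 28 were called, and 18 of these kept the call and direction under every alternative that could be run on them, since filters and probe set choices left some out. JAL34 reversed on arrays of low ratio (0.085, adjusted p = 0.84). A Var2-1 mean below a signal of 100 sets only a lower limit on how far a gene lies below the others.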
